A study of Mus musculus with 12 samples.

Results

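The heat shock chaperones described here are 10 genes of the mouse kidney, chosen by symbol from the 39171 genes of the deposited count table. They are the mitochondrial chaperone genes Hspd1, Hspe1 and Hspa9 and the cytosolic and small heat shock genes Hspa1a, Hspa1b, Hspa8, Hsp90aa1, Hsph1, Dnajb1 and Hspb1. All 10 were found once in the table, and all 10 were among the 15589 genes with enough counts to be tested. RNA was sequenced from the kidneys of 12 male mice aged up to 3 months, 1 library per mouse. The groups were 4 mice homozygous for the GNE M743T knock-in and labelled sick, 4 mice of the same genotype labelled healthy, and 4 wild-type mice. Gne encodes the enzyme that starts sialic acid synthesis. Both groups of mutants, sick and healthy, share this allele and differ by phenotype label, and the labels do not say what the illness was or which strain the mice had. The 12 mice are separate animals, so the spread given below is between mice.

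Heat shock proteins hold unfolded proteins and help them fold. HSP60 and its lid HSP10, encoded by Hspd1 and Hspe1, form a folding chamber in the mitochondrial matrix, and mitochondrial HSP70, encoded by Hspa9, pulls proteins into the matrix and hands them on. In the cytosol, HSP70 proteins work with J-domain partners such as DNAJB1 and with exchange factors such as HSP110, and HSP90 finishes the folding of kinases and steroid receptors. Small heat shock proteins such as HSPB1 bind unfolding proteins without using ATP. The transcription factor HSF1 switches on many of these genes after heat, ischaemia or protein damage, by binding heat shock elements made of alternating nGAAn and nTTCn units. The kidney's proximal tubule cells are rich in mitochondria.

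The libraries held between 10605546 and 22633684 counts in sick mutant mice, between 18191087 and 21925419 in healthy mutant mice and between 13189478 and 19493856 in wild-type mice. The members were well covered, the lowest having a median of 185.5 counts per library. Levels are given as CPM, counts scaled to a common library size, after TMM scaling, which balances the libraries on the bulk of their genes. The TMM factors were 1.23 to 1.39 in sick mutant, 0.80 to 0.93 in healthy mutant and 0.84 to 0.90 in wild-type mice. This scaling therefore lowered the sick values relative to the others, compared with library totals alone. The kidney's main cell type was checked by 10 proximal tubule marker genes, which summed to 3653 to 8805 CPM in sick mutant kidneys, 42224 to 55673 CPM in healthy mutant kidneys and 23594 to 57054 CPM in wild-type kidneys. All 10 of these markers fell in sick mutant against wild-type kidneys, with a median log2 fold change of -2.83. Summed markers of fibroblasts and myofibroblasts stood at 2513 to 5394 CPM in sick mutant, 317 to 849.9 CPM in healthy mutant and 345 to 519.7 CPM in wild-type kidneys, and those of macrophages at 717 to 1434 CPM in sick, 164 to 227 CPM in healthy mutant and 107 to 209 CPM in wild-type kidneys. The sick kidneys thus held a different mix of RNA from the others, and in bulk tissue fewer cells of a type and less RNA per cell cannot be told apart. The healthy mutant kidneys also differed in mix from the wild-type ones. In them 8 skeletal muscle markers summed to 270 to 418 CPM, against 39.5 to 91.1 CPM in wild-type and 2.43 to 15.5 CPM in sick mutant kidneys. The list includes Pvalb, also used as a distal tubule marker, which fell in sick mutant against wild-type kidneys (log2 fold change -5.78). In that comparison 5 of the 8 were called higher and 1 lower, against 25.9% and 25.0% of all genes. The sums therefore do not order sick and wild-type kidneys by muscle RNA. Of these markers, 7 were called higher in healthy mutant against wild-type mice, where 0.314% of all genes were called. Their bearing on the members' levels was not tested. Wild-type mouse 2 stood apart from the other mice on the second principal component, which held 11.9% of the variance, and had the lowest proximal tubule sum of the wild-type mice.

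Promoter sequences are shown for 4 members, Hspe1, Hspa1a, Hsph1 and Hspb1, to set their heat shock elements beside their levels. In sick mutant mice, as given below, Hspe1 and Hsph1 were lower, Hspb1 was higher and Hspa1a was not called. The sequences come from the RefSeq promoter table of build GRCm38, which held starts of 7 of the 10 members. Each runs 5′ to 3′ on the gene's strand over the 250 bases before the annotated start, and capitals mark each match, on either strand, to GAANNTTC or TTCNNGAA, the head-to-head and tail-to-tail pairs of the heat shock element. The windows are chr1:55087898-55088147 (plus strand) for Hspe1, chr17:34972157-34972406 (minus strand) for Hspa1a, chr5:149636337-149636586 (minus strand) for Hsph1 and chr5:135887669-135887918 (plus strand) for Hspb1.
Hspe1: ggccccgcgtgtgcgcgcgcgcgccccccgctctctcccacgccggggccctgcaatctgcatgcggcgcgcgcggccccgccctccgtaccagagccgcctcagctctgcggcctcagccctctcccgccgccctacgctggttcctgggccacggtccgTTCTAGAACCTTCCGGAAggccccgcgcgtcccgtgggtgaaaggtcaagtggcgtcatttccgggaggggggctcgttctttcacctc
Hspa1a: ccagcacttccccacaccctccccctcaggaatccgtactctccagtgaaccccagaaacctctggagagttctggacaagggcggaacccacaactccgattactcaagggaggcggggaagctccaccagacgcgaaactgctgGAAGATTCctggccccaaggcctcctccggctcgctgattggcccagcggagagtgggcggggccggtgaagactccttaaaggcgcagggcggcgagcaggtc
Hsph1: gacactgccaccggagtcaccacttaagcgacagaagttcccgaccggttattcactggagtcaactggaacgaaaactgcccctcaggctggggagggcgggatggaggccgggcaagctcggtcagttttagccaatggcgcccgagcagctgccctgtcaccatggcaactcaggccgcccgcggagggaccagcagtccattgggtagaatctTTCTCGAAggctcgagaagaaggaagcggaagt
Hspb1: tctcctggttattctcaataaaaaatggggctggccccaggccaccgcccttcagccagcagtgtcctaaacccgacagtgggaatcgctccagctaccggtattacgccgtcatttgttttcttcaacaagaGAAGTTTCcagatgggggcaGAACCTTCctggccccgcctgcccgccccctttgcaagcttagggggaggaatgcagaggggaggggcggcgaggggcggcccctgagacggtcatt

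Hspe1 carried 3 overlapping pairs, beginning 89, 84 and 79 bases before its start, so that 4 units follow each other without a gap. Hspd1 lies head to head with Hspe1 on chromosome 1 (Hspd1 at 55077835 to 55088243 on the minus strand, Hspe1 at 55088132 to 55091307 on the plus strand). The same stretch therefore falls into the window of 1 of the 2 annotated Hspd1 starts, the one 216 bases from the Hspe1 start. The annotated spans of these genes overlap by 112 bases, and reads there cannot be told apart unless strand was used in counting, which no source at hand states. Hspa1a had 1 pair, beginning 104 bases before its start, and Hspa1b had the same pair at the same distance. Hsph1 had 1 pair, 33 bases before the start shown, and Hspb1 had 2, at 117 and 97 bases. The windows of the 2 Dnajb1 starts held none. Among all 32851 promoter windows of the table, 4218 (12.8%) held at least 1 such pair and 153 (0.466%) held 3 alternating units in a row. A match is a description of the letters and was not tested as a binding site.

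Each of the mitochondrial members was lower in the sick kidneys than in every healthy mutant and every wild-type kidney. Hspd1 had 96.4, 106, 164 and 135 CPM in the 4 sick mutant mice, against 456, 456, 445 and 525 CPM in healthy mutant mice and 436, 486, 475 and 535 CPM in wild-type mice. The highest sick value lay far below the lowest of the other 8 mice, and the fall against wild-type was 3.86-fold. The log2 fold change of Hspd1 was -1.95 ± 0.17 (SE) in sick mutant against wild-type mice, with an adjusted p of 4.30e-06, and -1.91 ± 0.17 in sick against healthy mutant mice, with an adjusted p of 6.27e-06 (edgeR's quasi-likelihood test, Benjamini-Hochberg adjustment over all 15589 genes, as for every adjusted p below). Hspe1, the HSP10 lid, had 41.4, 42.5, 84.9 and 79.9 CPM in sick mutant mice, 145, 156, 147 and 178 CPM in healthy mutant mice and 164, 296, 144 and 187 CPM in wild-type mice. The sick mice formed a lower pair (mice 1 and 2) and a higher pair (mice 3 and 4), and wild-type mouse 2 stood above all the others. Hspe1 fell by 1.67 on the log2 scale against wild-type (SE 0.28, adjusted p 0.000304) and by 1.33 against healthy mutant mice (SE 0.27, adjusted p 0.00162).

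Hspa9, the matrix HSP70, was the most even of the 3. It had 311, 375, 488 and 389.7 CPM in sick mutant mice, 863, 809, 821 and 894 CPM in healthy mutant mice and 878, 857, 944 and 987 CPM in wild-type mice. Sick mice 1 and 3 were the lowest and highest of their group for both Hspd1 and Hspa9, and no value of a sick mouse reached the other groups. Its log2 fold change was -1.23 ± 0.15 against wild-type (adjusted p 3.63e-05) and -1.12 ± 0.15 against healthy mutant mice (adjusted p 9.11e-05). The size of these falls depended on the scaling. Over the scalings, filters and fits that left out no mouse of the comparison, the change against wild-type was -1.25 to -0.65 for Hspa9. It was -1.97 to -1.37 for Hspd1 and -1.70 to -1.09 for Hspe1, and all 3 kept their calls. A list of 17 other genes that track mitochondrial content, with import channels, respiratory chain subunits and porins among them, fell alongside, with 16 lower and 0 higher in sick mutant against wild-type mice and a median log2 fold change of -1.09, or 9 lower and 0 higher with library totals alone. Of all genes tested, 25.0% were called lower and 25.9% higher in that comparison by the TMM fit. The summed level of these 17 genes was 3376 to 5902 CPM in sick mutant, 9640.1 to 10977 CPM in healthy mutant and 10385 to 13294 CPM in wild-type mice. The part of mitochondrial content, or of the proximal tubule markers that fell in the same kidneys, in the fall of the 3 chaperone genes was not tested.

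**Figure D1:**
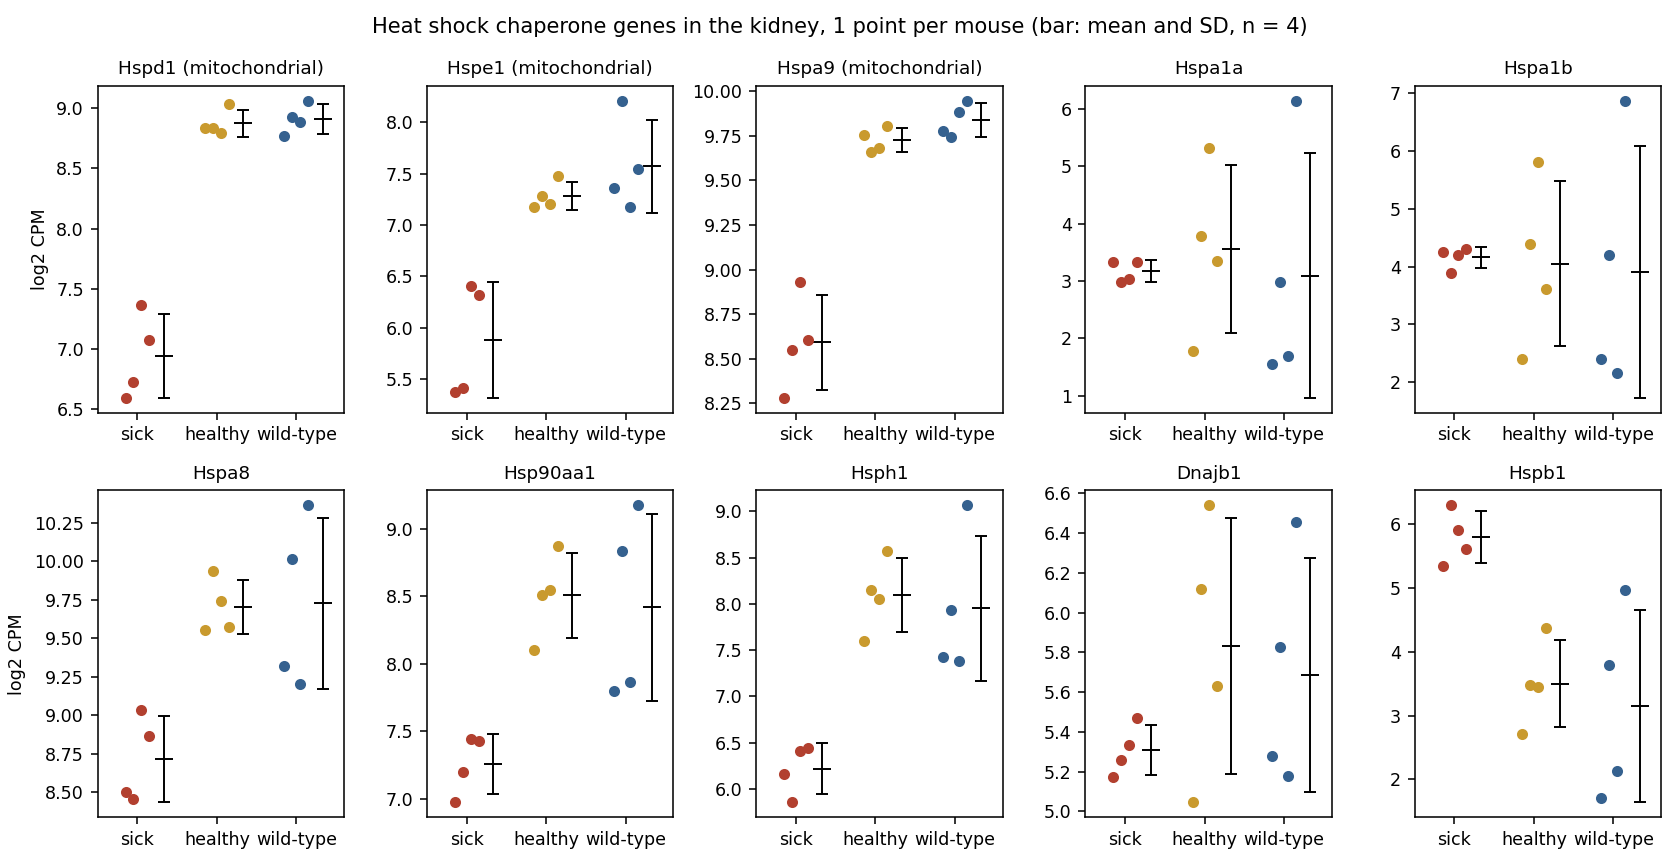
Log2 CPM of each of the 10 genes in each mouse (y axis, own scale per panel) by group (x axis), with the mean and SD of the 4 mice as a black bar. In the panels of Hspd1, Hspe1, Hspa9, Hspa8, Hsp90aa1 and Hsph1 every sick mouse lies below every other mouse, in the Hspb1 panel every sick mouse lies above, and in the Hspa1a, Hspa1b and Dnajb1 panels the groups overlap.

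Of the cytosolic genes, Hspa8, Hsp90aa1 and Hsph1 fell as well, against a wider spread in wild-type mice. Hspa8 encodes HSC70, the HSP70 that cells make without stress. It had 362, 351, 524 and 466 CPM in sick mutant mice, 753, 981, 857 and 763 CPM in healthy mutant mice and 639, 1035, 589 and 1317 CPM in wild-type mice. The groups did not overlap, but wild-type mice 1 and 3 came close to the highest sick mouse. Its log2 fold change was -1.07 ± 0.25 against wild-type (adjusted p 0.00341) and -0.98 ± 0.25 against healthy mutant mice (adjusted p 0.00677). When only the library totals were used for scaling, the values became -0.48 (adjusted p 0.0935) and -0.41 (adjusted p 0.146), so the call on Hspa8 depends on the scaling.

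Hsp90aa1, the stress-responsive HSP90, had 125, 147, 174 and 172 CPM in sick mutant mice, 275, 364, 373 and 468 CPM in healthy mutant mice and 223, 458, 233 and 577 CPM in wild-type mice. Wild-type mice 1 and 3 were again the low pair and mice 2 and 4 the high pair. Hsp90aa1 fell by 1.27 on the log2 scale against wild-type (SE 0.29, adjusted p 0.00290) and by 1.26 against healthy mutant mice (SE 0.29, adjusted p 0.00352). Over the scalings, filters and fits that left out no mouse of the comparison, its log2 fold change was -1.30 to -0.67 against wild-type. Against healthy mutant mice it was -1.28 to -0.68. The calls were kept. Hsph1 encodes HSP110, an exchange factor for HSP70. It had 71.6, 57.8, 85.3 and 87.2 CPM in sick mutant mice, 194, 284, 264 and 381 CPM in healthy mutant mice and 172, 245, 167 and 535 CPM in wild-type mice. The nearest mice outside the sick group, wild-type mice 1 and 3, still had far more than the highest sick mouse. Hsph1 had a log2 fold change of -1.89 ± 0.35 against wild-type (adjusted p 0.000704) and -1.90 ± 0.35 against healthy mutant mice (adjusted p 0.000823). Without wild-type mouse 4, which held the highest Hsph1 level, the change against wild-type was -1.38.

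The stress-inducible HSP70 genes Hspa1a and Hspa1b were not called in any comparison. Hspa1a had 9.97, 7.77, 8.06 and 9.97 CPM in sick mutant mice, 3.30, 13.8, 39.9 and 10.1 CPM in healthy mutant mice and 2.83, 7.84, 3.12 and 70.7 CPM in wild-type mice. Hspa1b had 18.9, 14.8, 18.3 and 19.6 CPM in sick mutant mice, 5.15, 20.8, 55.7 and 12.04 CPM in healthy mutant mice and 5.18, 18.2, 4.33 and 117 CPM in wild-type mice. The sick mice were nearly level with each other and sat inside the range of the other groups, which ran over more than a factor of 10. In sick mutant against wild-type mice the log2 fold change was -1.24 ± 0.93 for Hspa1a (adjusted p 0.283) and -1.02 ± 0.91 for Hspa1b (adjusted p 0.371). Wild-type mouse 4 set that sign, and without it the values were 0.93 for Hspa1a and 0.93 for Hspa1b, neither of them called. In sick against healthy mutant mice the values were -0.91 ± 0.92 for Hspa1a (adjusted p 0.445) and -0.39 ± 0.90 for Hspa1b (adjusted p 0.746). The sign of Hspa1b there also turned, to 0.48 without healthy mutant mouse 3 and to 0.16 with library totals alone.

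Hspa1a and Hspa1b are near copies, 9951 bases apart on chromosome 17 (34969190 to 34972156 and 34956436 to 34959238, both on the minus strand). Their promoter windows are identical at 247 of 250 bases, and 58.8% of the 50-base words of the Hspa1a transcript also occur in Hspa1b. The counting rule for shared reads was not stated in any source at hand, so the division between these genes is uncertain. With the counts of both added, the log2 fold change was -1.10 in sick mutant against wild-type mice (adjusted p 0.340) and -0.59 in sick against healthy mutant mice (adjusted p 0.625). Hspa8, Hspd1 and Hspe1 have processed pseudogenes in the mouse genome, to which the same limit applies.

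Dnajb1, the inducible J-domain partner of HSP70, had 36.0, 38.2, 40.3 and 44.2 CPM in sick mutant mice, 32.9, 69.3, 92.9 and 49.4 CPM in healthy mutant mice and 38.8, 56.6, 36.1 and 87.8 CPM in wild-type mice. The sick mice overlapped the low end of both other groups. Its log2 fold change was -0.47 ± 0.31 against wild-type (adjusted p 0.233, and 0.13 with library totals alone) and -0.62 ± 0.31 against healthy mutant mice (adjusted p 0.122). Without healthy mutant mouse 1, whose level was the lowest of all 12, the second comparison gave -0.84 with an adjusted p of 0.0379.

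Hspb1, also known as HSP25 in the mouse, was the 1 member that rose. It had 40.7, 78.6, 60.2 and 48.9 CPM in sick mutant mice, 6.42, 11.1, 10.8 and 20.6 CPM in healthy mutant mice and 3.16, 13.7, 4.25 and 31.1 CPM in wild-type mice. Every sick mouse lay above the other 8, wild-type mouse 4 being the nearest. The rise was 4.33-fold against wild-type (log2 fold change 2.12 ± 0.59, adjusted p 0.00950) and 4.67-fold against healthy mutant mice (log2 fold change 2.22 ± 0.59, adjusted p 0.00819). Without wild-type mouse 4 the log2 fold change against wild-type was 2.98 (adjusted p 0.000758). The ratio of Hspb1 to Hsp90aa1 counts within a library, which no library scaling can move, was 0.285 to 0.536 in sick mutant mice, 0.0233 to 0.0439 in healthy mutant mice and 0.0142 to 0.0539 in wild-type mice. Hsp90aa1 itself fell in the sick mice, so this ratio holds that fall together with the rise of Hspb1. Smooth muscle, which is rich in small heat shock proteins, was marked more strongly in the sick kidneys, its 5 marker genes summing to 522 to 1172 CPM, against 135 to 322 CPM in healthy mutant and 126 to 198 CPM in wild-type kidneys. Its part in the Hspb1 level was not tested.

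Over the 10 genes, 6 were lower, 1 was higher and 3 were not called in sick mutant against wild-type mice. Of all genes tested, 25.0% were called lower and 25.9% higher in that comparison, so the share of members called lower was above that of all genes and the share called higher was below it. The same 6 and 1 members were the ones whose groups did not overlap, which held for 20.6% of all genes on the lower side and 22.7% on the higher side. The median log2 fold change was -1.24 over the members and 0.02 over all genes. In sick against healthy mutant mice 6 members were lower and 1 higher, against 21.9% and 24.5% of all genes, and groups without overlap were found for the same numbers of members, against 23.2% of all genes on the lower side and 24.0% on the higher. The median there was -1.05 over the members and 0.05 over all genes. These comparisons share the 4 sick libraries and are not independent of each other. Scaling by library totals alone moved the median of all genes to 0.61 against wild-type, with 8420 genes higher and 1605 lower in place of 4032 and 3901. It left 5 members lower and 1 higher, at a members' median of -0.63.

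**Figure D2:**
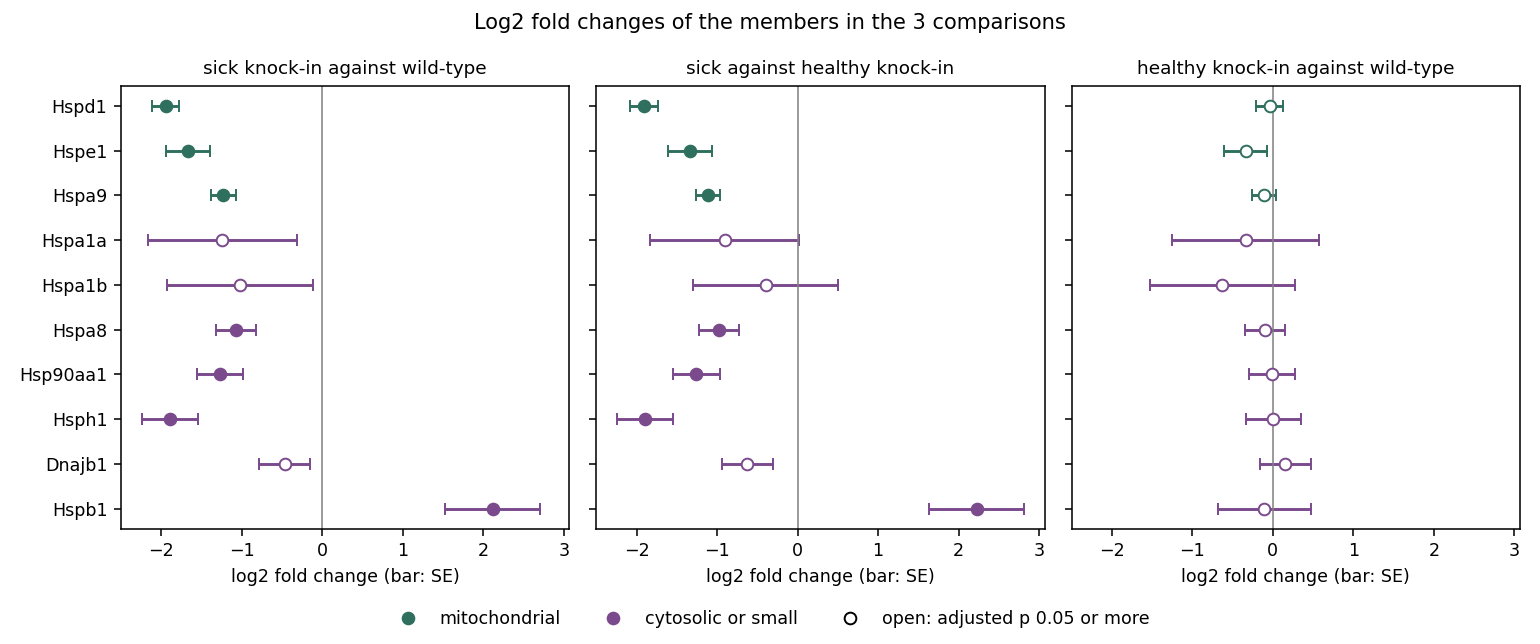
Log2 fold change with its SE (x axis) of each of the 10 genes (y axis) in sick mutant against wild-type, sick against healthy mutant and healthy mutant against wild-type mice, filled where the adjusted p was under 0.05. The left and middle panels show 6 filled points below 0 and Hspb1 above 2, and the right panel shows 10 open points near 0.

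In healthy mutant against wild-type mice, 0 of the 10 members were called by edgeR's quasi-likelihood test, 0 had an unadjusted p under 0.05, and 0 were called by DESeq2. Of all genes tested, 0.314% were called in that comparison. The log2 fold changes ran between -0.63 for Hspa1b and 0.16 for Dnajb1. For the mitochondrial members they were -0.04 ± 0.17 for Hspd1, -0.34 ± 0.27 for Hspe1 and -0.11 ± 0.15 for Hspa9, and for the inducible pair -0.34 ± 0.91 for Hspa1a and -0.63 ± 0.90 for Hspa1b. A p that misses the threshold does not show that the groups were alike, least so for the inducible pair with its wide error. The healthy mutant and wild-type libraries are the ones the sick mice were set against above.

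The members differed in how evenly mice of a group carried them. In wild-type mice the SD of log2 CPM was 0.12 for Hspd1 and 0.09 for Hspa9, against a median of 0.36 over all genes tested, but 0.45 for Hspe1. It was 2.13 for Hspa1a and 2.17 for Hspa1b, larger than for 99.7% and 99.8% of genes. Hspb1 had an SD of 1.51 there, Hsph1 0.78, Hsp90aa1 0.69, Dnajb1 0.59 and Hspa8 0.56. In healthy mutant mice the inducible pair again had the widest spread, 1.46 for Hspa1a and 1.43 for Hspa1b, against a median of 0.21. In sick mutant mice it was 0.19 for Hspa1a and 0.18 for Hspa1b, under the median of 0.28, while Hspd1 (0.35), Hspb1 (0.41) and Hspe1 (0.56) varied more than most genes. Wild-type mouse 4 was the highest of the 8 mice outside the sick group for 6 of the 7 cytosolic and small members, Dnajb1 being highest in healthy mutant mouse 3. Its summed cytosolic level was 2735 CPM, against 1084, 1834 and 1037 CPM in wild-type mice 1 to 3. Its 12 immediate early genes, which switch on within minutes of a stimulus, summed to 336 CPM, against 132, 154 and 122 CPM in those mice. In healthy mutant mice 1 to 4 these genes summed to 195, 223, 256 and 455 CPM. There mouse 4 was the highest, while Hspa1a and Hspa1b were highest in mouse 3. The sick mice, with their even Hspa1a and Hspa1b levels, had sums of 471 to 531 CPM. A link between the summed levels was not tested.

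**Figure D3:**
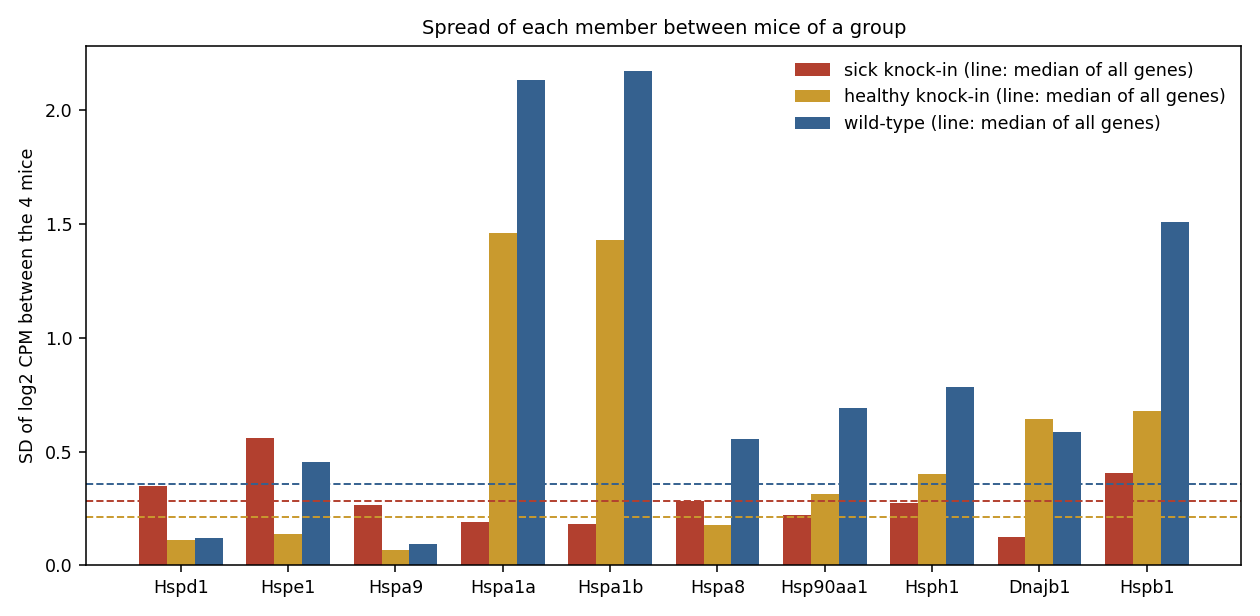
SD of log2 CPM between the 4 mice of a group (y axis, from 0) for each of the 10 genes (x axis), with sick mutant, healthy mutant and wild-type bars and a dashed line per group at the median of all genes tested. The Hspa1a and Hspa1b bars of healthy mutant and wild-type mice stand above 1.4, and those of sick mice lie below 0.2.

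The mitochondrial and cytosolic members did not keep a fixed proportion. The 3 mitochondrial genes summed to 578 ± 123 CPM in sick mutant mice, 1474 ± 85.2 CPM in healthy mutant mice and 1597 ± 99.4 CPM in wild-type mice (SD, n = 4 each). The 7 cytosolic and small genes summed to 779 ± 118 CPM in sick, 1602 ± 223 CPM in healthy mutant and 1672 ± 797 CPM in wild-type mice. The mean log2 CPM of the mitochondrial members exceeded that of the cytosolic and small members by 1.07 to 1.66 in sick mutant mice, by 1.78 to 3.28 in healthy mutant mice and by 1.28 to 3.56 in wild-type mice. The sick mice lay below all healthy mutant mice in this difference, and wild-type mouse 4, with the highest cytosolic level, lay among the sick mice. The mean log2 CPM weighs each gene alike. The cytosolic mean therefore sets the rise of Hspb1 and the widely spread Hspa1a and Hspa1b against the falls of Hspa8, Hsp90aa1 and Hsph1. By summed CPM, every sick mouse lay below every other mouse in both sets. The means were 1.33 ± 0.26 in sick, 2.45 ± 0.62 in healthy mutant and 2.78 ± 1.08 in wild-type mice, given as a description without a test because the sets were chosen with results known.

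**Figure D4:**
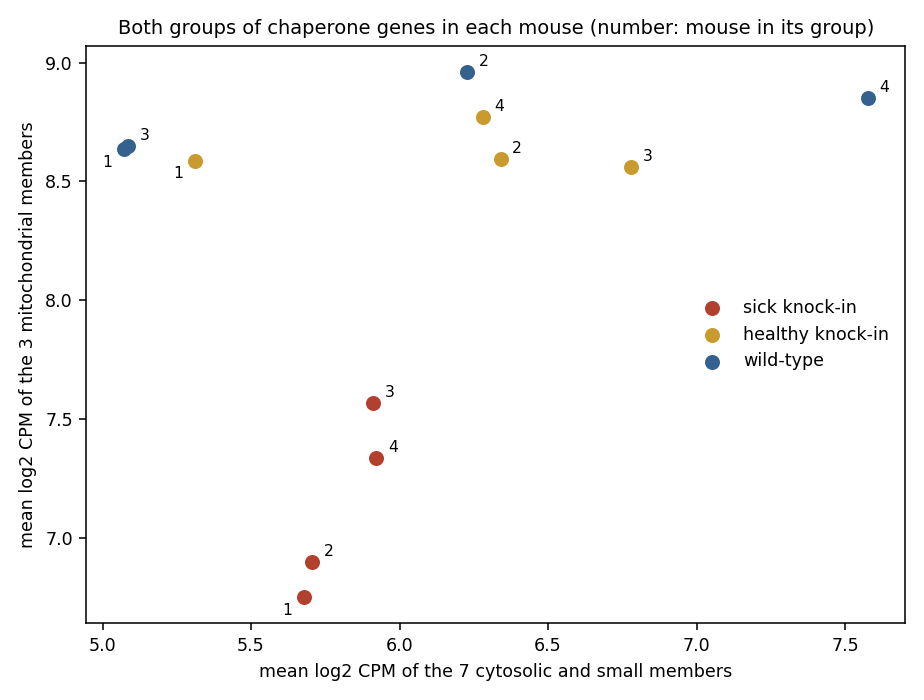
Mean log2 CPM of the 3 mitochondrial members (y axis) against that of the 7 cytosolic and small members (x axis), 1 point per mouse, numbered within its group. The 4 sick mice lie below 7.6 on the y axis and within the x range of the other mice, whose points spread along the x axis at y values above 8.5.

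Per kilobase of annotated exons, the order of the members also differed between groups. The lengths join all annotated exons of a gene and not the transcripts expressed, so the order between genes depends on the annotation. In wild-type mice Hspa9 (213 ± 13.8 CPM per kilobase), Hspa8 (208 ± 80.2) and Hspd1 (183 ± 15.5) were the highest, followed by Hspe1 (134 ± 46.03), Hsp90aa1 (94.8 ± 44.4) and Hsph1 (38.5 ± 23.9), and the lowest were Dnajb1 (17.1 ± 7.43), Hspa1b (12.9 ± 19.3), Hspb1 (12.7 ± 12.6) and Hspa1a (7.12 ± 11.2). Within the first 3 and within the last 4, neighbouring means differed by less than the larger of their SDs. In sick mutant mice Hspa8 (98.98 ± 19.4) and Hspa9 (90.7 ± 17.0) came first and did not differ beyond their SD. Hspb1 (55.4 ± 15.9) came next, beside Hspd1 (47.4 ± 11.6), Hspe1 (42.2 ± 15.9) and Hsp90aa1 (39.3 ± 5.86), where neighbouring means again differed by less than the larger SD. Dnajb1 (12.4 ± 1.09) and Hsph1 (10.4 ± 1.88) followed, with Hspa1b (6.37 ± 0.761) and Hspa1a (3.01 ± 0.403) last.

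Partner genes from lists of the same pathways were examined in the same fit. The counts of each list in sick mutant against wild-type mice stand against 25.0% of all genes called lower and 25.9% called higher. Of 16 other mitochondrial chaperones and proteases, 15 fell and 0 rose in sick mutant against wild-type mice, with a median log2 fold change of -1.09, against 9 lower and 1 higher with library totals alone. Trap1, the mitochondrial HSP90, averaged 109.5 ± 25.3 CPM in sick mutant and 350.5 ± 44.7 CPM in wild-type mice (log2 fold change -1.68), and Dnajc19, of the import motor, 26.1 ± 6.69 CPM in sick mutant and 80.7 ± 10.7 CPM in wild-type mice (-1.63). Clpx (-1.32), the unfolding partner of the matrix protease Clpp, and the matrix protease Lonp1 (-1.20) fell too. Htra2, a protease between the membranes, was at 0.17 and not called. Of 12 endoplasmic reticulum chaperones 10 fell and 0 rose (median -0.84), but with library totals alone only Dnajb11 was called. The leading genes were Hspa5, the BiP chaperone (-1.24), Dnajb11 (-1.12), Calr (-1.12) and Hsp90b1 (-1.03). Of HSP90 and its co-chaperones, 9 of 12 fell and 1 rose (median -0.69), against 2 lower, Chordc1 and Fkbp4, and 1 higher with library totals alone. The leading genes were Chordc1 (-1.37), the immunophilin Fkbp4 (-1.16), the HSP90 activator Ahsa1 (-1.01) and the HSP70-HSP90 adaptor Stip1 (-0.98).

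The J-domain genes of a further list fell less evenly, with 6 of 11 lower and 2 higher (median -0.46), against 2 lower and 4 higher with library totals alone (median 0.13). Dnaja4 averaged 5.12 ± 0.746 CPM in sick mutant and 24.01 ± 14.8 CPM in wild-type mice (log2 fold change -2.22), and Dnaja1 84.4 ± 18.9 CPM in sick mutant and 309 ± 109 CPM in wild-type mice (-1.87). Dnajb12 fell (-0.74) and Dnajb5 rose (0.86). Among 7 further HSP70 and HSP110 genes tested, 4 fell and 1 rose (median -0.50), against 0 lower and 3 higher with library totals alone (median 0.10). By the TMM fit, Hspa12a (-0.86), Hspa4l (-0.82) and Hspa4 (-0.68) were lower and Hspa2, best known from the testis, was higher (0.80). Of 8 exchange factors and partners of HSP70, 3 fell and 1 rose (median -0.33), against 0 lower and 3 higher with library totals alone (median 0.26). The TMM fit had St13 (-0.75), Bag1 (-0.64) and Stub1 (-0.54) lower and Bag2 higher (1.22). Of the 8 subunits of the cytosolic chaperonin TRiC, 5 fell and 0 rose (median -0.45), against 0 lower and 2 higher, Cct2 and Cct4, with library totals alone (median 0.14). The largest falls in the TMM fit were those of Cct6a (-0.74), Cct8 (-0.64), Cct3 (-0.54) and Cct7 (-0.47). Of 4 genes for heat shock factors and their binding partner (median -0.21, or 0.39 with library totals alone, where 0 were lower and 1 higher), Hsbp1 fell (-0.48) and 0 rose, while Hsf1 was at -0.16 and Hsf2 at -0.26, not called. For this list (1 of 4) and the exchange factors (3 of 8), the share of lower genes was near the 25.0% of all genes.

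Small heat shock genes other than Hspb1 went both ways. Of 6 tested, 3 rose and 1 fell (median 1.30), against 5 higher and 1 lower with library totals alone. Hspb8, a partner of the exchange factor BAG3, averaged 34.7 ± 2.33 CPM in sick mutant and 5.08 ± 1.91 CPM in wild-type mice (log2 fold change 2.77), and Hspb7, known from heart and muscle, 13.2 ± 6.80 CPM in sick mutant and 1.48 ± 0.411 CPM in wild-type mice (3.16). Hspb2 stood at 2.42 ± 0.607 CPM in sick mutant and 0.717 ± 0.308 CPM in wild-type mice (1.71). Cryab, a lens and muscle crystallin, averaged 92.4 ± 27.3 CPM in sick mutant and 49.5 ± 33.8 CPM in wild-type mice (0.90) and was not called, nor was Hspb6, at 8.09 ± 1.97 CPM in sick mutant and 7.87 ± 3.08 CPM in wild-type mice (0.03). The gene that fell, Cryaa, averaged 0.127 CPM in sick mutant and 0.793 CPM in wild-type mice, and without wild-type mouse 2 the list had 0 genes lower and 4 higher. Of the 12 immediate early genes 10 rose (median 2.05), their sum being 471 to 531 CPM in sick mutant, 195 to 455 CPM in healthy mutant and 122 to 336 CPM in wild-type mice.

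**Figure D5:**
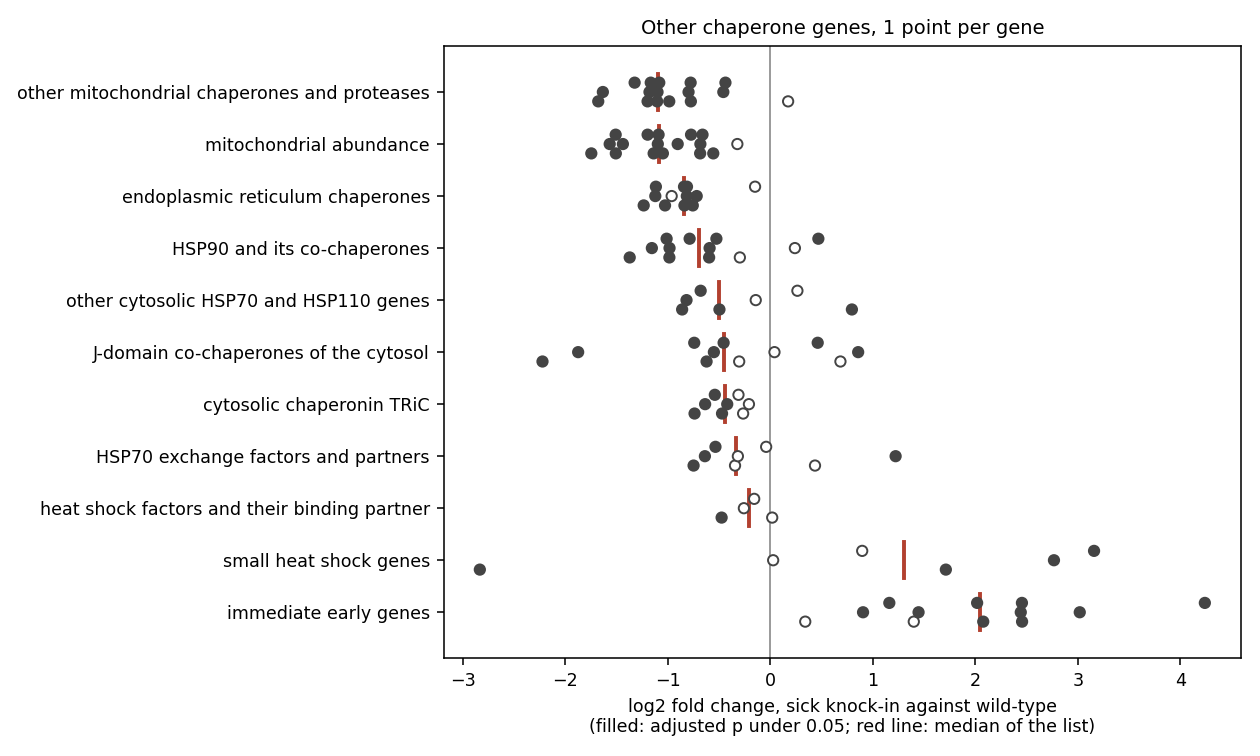
Log2 fold change in sick mutant against wild-type mice (x axis) of the genes of 11 lists (y axis), 1 point per gene, filled where the adjusted p was under 0.05, with the list's median as a red line. Points of the mitochondrial and endoplasmic reticulum lists lie almost all below 0, those of the TRiC, exchange factor and heat shock factor lists nearer to 0 (their medians are above 0 with library totals alone), and most of the small heat shock and immediate early genes above 0.

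In sick against healthy mutant mice, where 21.9% of all genes were lower and 24.5% higher, the counts of lower and higher genes were 13 and 0 of 16 for the mitochondrial chaperones and proteases and 10 and 0 of 12 for the endoplasmic reticulum. They were 6 and 1 of 12 for HSP90 and its co-chaperones, 5 and 1 of 11 for the J-domain genes and 1 and 3 of 6 for the small heat shock genes. TRiC had 2 and 0 of 8, so that its share of lower genes was near that of all genes. In healthy mutant against wild-type mice 0 genes of these lists were called by edgeR. With library totals alone, where the median of all genes was 0.61 against wild-type, the list medians were -0.51 for the mitochondrial chaperones and proteases, -0.25 for the endoplasmic reticulum and -0.10 for HSP90 and its co-chaperones, with most of the calls of the last 2 lists lost. Under that scaling Cct3 (0.05), Cct7 (0.12), Stub1 (0.05) and Hsbp1 (0.11) were above 0 and not called. Without wild-type mouse 2, 3 TRiC subunits were lower in place of 5, Hsbp1 was not called, and in sick against healthy mutant mice 4 TRiC subunits and 4 exchange factors were lower in place of 2 and 2.

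The genes most like Hspd1 across the 12 libraries were Dnaja3, a mitochondrial J-domain partner of HSPA9, with a Pearson correlation of log2 CPM of 0.996, Ugt3a2, a glycosyltransferase (0.996), and Pank1, a kinase of coenzyme A synthesis (0.996). Their means were 74.4 CPM in sick mutant, 168 CPM in healthy mutant and 167 CPM in wild-type mice for Dnaja3, 186 CPM in sick, 1500.1 CPM in healthy mutant and 1557 CPM in wild-type mice for Ugt3a2, and 76.5 CPM in sick, 452 CPM in healthy mutant and 497 CPM in wild-type mice for Pank1. For Hsp90aa1 the nearest were Hsp90ab1, the constitutive HSP90 (0.986), Pdxdc1 (0.973) and the member Hsph1 (0.965). Hsp90ab1 averaged 948 CPM in sick mutant, 1603 CPM in healthy mutant and 1635 CPM in wild-type mice. These correlations are descriptions over 12 libraries that share the split between sick and other kidneys.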

How the data were processed

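Kidney RNA of 12 mice was sequenced, extracted with a miRvana kit and treated with DNase before Trueseq library preparation, per the labels' protocols. The submitters' processing notes name Trim Galore 0.3.7, TopHat2 2.0.11, Cufflinks, DESeq2 1.12.4 and build GRCm38, with no role or order. The counter, annotation release and use of strand were not given in those notes. The values used are the whole-number counts per gene that the authors deposited. Another 12 columns of per-sample values, already normalized, were not used.

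Of 39171 genes, 15589 passed edgeR's filterByExpr. They were fitted over all 12 libraries with TMM scaling (edgeR 4.0.16, limma 3.58.1, R 4.3.3) and tested by quasi-likelihood F tests, called at a Benjamini-Hochberg adjusted p under 0.05 over these genes. The biological coefficient of variation was 0.270 in common over genes. Log2 CPM used a prior count of 2, and lengths were exon unions of GENCODE. Depth ran from 10605546 to 22633684 counts. The p-values weigh a difference of group means against the spread between mice. That spread was estimated jointly over all groups, so it need not describe a group whose own spread differs, as for Hspa1a and Hspa1b. The script was tested on simulated data. Alternatives were DESeq2 1.42.0, other scalings and filters, a replicate block, a fit of the 8 libraries compared and leaving out each library.

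The 10 members are all named, as are the leading called genes of each list, up to 4 by size of change. Members and lists were chosen with earlier results of these data known, so they are no independent support.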

Additional observations from a re-analysis of the deposited data

Results flagged for a closer look

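Of 30 groups of 4 mice, 1 for each member and group, 3 held a mouse that lay far outside its own group by Dixon's criterion. For normally distributed values, chance meets it in about 1 of 20 groups. The criterion was applied to CPM without logs, which can be skewed, so that rate need not hold here. Wild-type mouse 4 had 70.7 CPM of Hspa1a and 117 CPM of Hspa1b, each the highest value of its group by a wide gap. These genes are near copies with an uncertain division of reads, so their flags are not independent of each other. Healthy mutant mouse 4 had 525 CPM of Hspd1, somewhat above the close values of the other 3 mice of its group.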

How the results depend on the processing

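Over all alternatives run, direction and call were kept in 577 values of single members, 26 changed sign, 2 lost and 1 gained a call, and the count of members called stayed within 1.5 times under every alternative run. The 81 genes that DESeq2 called in healthy mutant against wild-type mice exceeded edgeR's 49. With library totals alone, the log2 fold change turned to 0.13 for Dnajb1 in sick mutant against wild-type mice, to 0.16 for Hspa1b in sick against healthy mutant mice and to 0.00266 for Hsp90aa1 in healthy mutant against wild-type mice. There, the fit of 8 libraries gave -0.0118 for Hsph1. The deviations of same-numbered mice of different groups from their group means correlated at r between -0.260 and 0.243 over 12 pairs, 4 of them above 0.1. Differently numbered mice were not compared, so these values cannot decide whether the numbers pair mice. With a replicate block, 7480, 6809 and 44 genes were called in the 3 comparisons, against 7933, 7232 and 49 without it, and in healthy mutant against wild-type mice Hspa1a was 0.34, Hsp90aa1 0.0531 and Hspb1 0.17. Leaving out 1 mouse at a time gave -1.62 to 0.93 for Hspa1a and -1.40 to 0.93 for Hspa1b in sick mutant against wild-type mice, and -0.73 to 0.48 for Hspa1b in sick against healthy mutant mice. In healthy mutant against wild-type mice it gave -0.0954 to 0.0148 for Hspd1, -1.23 to 1.85 for Hspa1a, -1.51 to 1.33 for Hspa1b, -0.25 to 0.15 for Hspa8, -0.19 to 0.28 for Hsp90aa1, -0.18 to 0.53 for Hsph1, -0.12 to 0.48 for Dnajb1 and -0.48 to 0.77 for Hspb1. The cause of these shifts was not tested.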

Other observations

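The ratio of Hspe1 to Hspd1 counts within a library was 0.403 to 0.593 in sick mutant mice, 0.317 to 0.342 in healthy mutant mice and 0.304 to 0.609 in wild-type mice, where mouse 2 had the highest value. The ratio of Hspa1a to Hspa1b counts was 0.441 to 0.529 in sick mutant mice, 0.642 to 0.835 in healthy mutant mice and 0.432 to 0.72 in wild-type mice. Sick and healthy mutant mice did not overlap in either ratio, and wild-type mice spanned the sick range of both.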
